A study of Mus musculus with 223 samples.

Results

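Kinesins are the motor proteins that walk along microtubules, and the mouse genes for them were followed here through single interneurons of the developing cortex. The 45 members were chosen by gene symbol alone (the Kif and Kifc motor genes and the Klc light chain genes) among 43629 genes counted. The cells carried GFP under control of Htr3a, the gene of the serotonin receptor 3A, and were sorted by fluorescence from whole cortex at E18, P2 and P5. The E18 group holds 82 cells of no named type. As the labels assign them, types 1, 2 and 3 have 22, 31 and 13 cells at P2 and 34, 19 and 22 cells at P5. All cells come from Htr3a-GFP+ embryos or pups without further alleles or treatments in the labels, and the tissue of each age was pooled from several animals before capture on microfluidic chips, more than 1 at E18 and P5. Each age is therefore 1 sample, cells of an age share their source, and no test across animals exists. All values below are descriptions of these pools.

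The conventional kinesin, kinesin-1, pairs heavy chains (Kif5a, Kif5b and Kif5c) with light chains that bind cargo. Kinesin-2 motors contain Kif3a with Kif3b or Kif3c and serve cilia and axonal transport, and kinesin-3 motors such as Kif1a and Kif1b move synaptic vesicle precursors and other organelles. Other members regulate the ends of microtubules (Kif2a, Kif21a, Kif21b) or build the mitotic spindle (Kif11, Kif23). In migrating and wiring neurons the transport motors are known to supply the growing axon, and most spindle motors are known to be turned off as cells leave the cell cycle.

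The level of a gene in a cell is given as RPM, its read pairs per 1000000 mapped read pairs of that cell, and a gene is called detected in a cell above 10 RPM. For a group, read pairs were summed over its cells and divided by the summed mapped pairs to give a pooled RPM. The median cell had 9463033 mapped pairs, the shallowest 3707601 and the deepest 15840130. Intervals on pooled RPM (exact Poisson) and on shares of cells (exact binomial) are 95% intervals that cover counting error only, since the reads carry no molecular identifiers. The libraries fall into 4 sets by the number in their labels, and all P2 cells belong to set A, which holds no other cells, so that P2 cannot be told apart from set A. At least 1 of 7 interneuron markers (such as Dlx1, Gad1 and Htr3a) was detected in 79 of 82 E18 cells, in 21, 29 and 13 cells of the P2 types and in all 75 P5 cells. In 21 cells, of which 12 were E18 cells, at least 2 markers of another cell type were detected, mostly those of excitatory neurons at E18 (12 cells) and of astrocytes or radial glia at P5 (7 cells).

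Of the 45 kinesin genes, 13 were detected in at least 25% of the cells of at least 1 group. They are the 3 heavy chains, the light chain Klc1, Kif3a, Kif3b, Kif3c, Kif1a, Kif1b, Kif21a, Kif21b, Kif2a and Kif24. The last of them inside that limit, Kif3b and Kif24, reached 27.3% of cells in a group, and the first outside it, Klc4, reached 21.1%. A further 27 genes were detected in some cells but in fewer than 25% of any group, and 5 (Kif18b, Kif2b, Kif6, Kif28 and Klc3) in none. By role, 3 of 3 heavy chains, 3 of 4 kinesin-2 genes, 2 of 6 kinesin-3 genes, 2 of 4 kinesin-4 genes outside mitosis, 2 of 11 depolymerases and members of kinesin-8 to kinesin-14, and 1 of 4 light chains passed the 25% limit, against 0 of 12 mitotic kinesins.

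**Figure D1:**
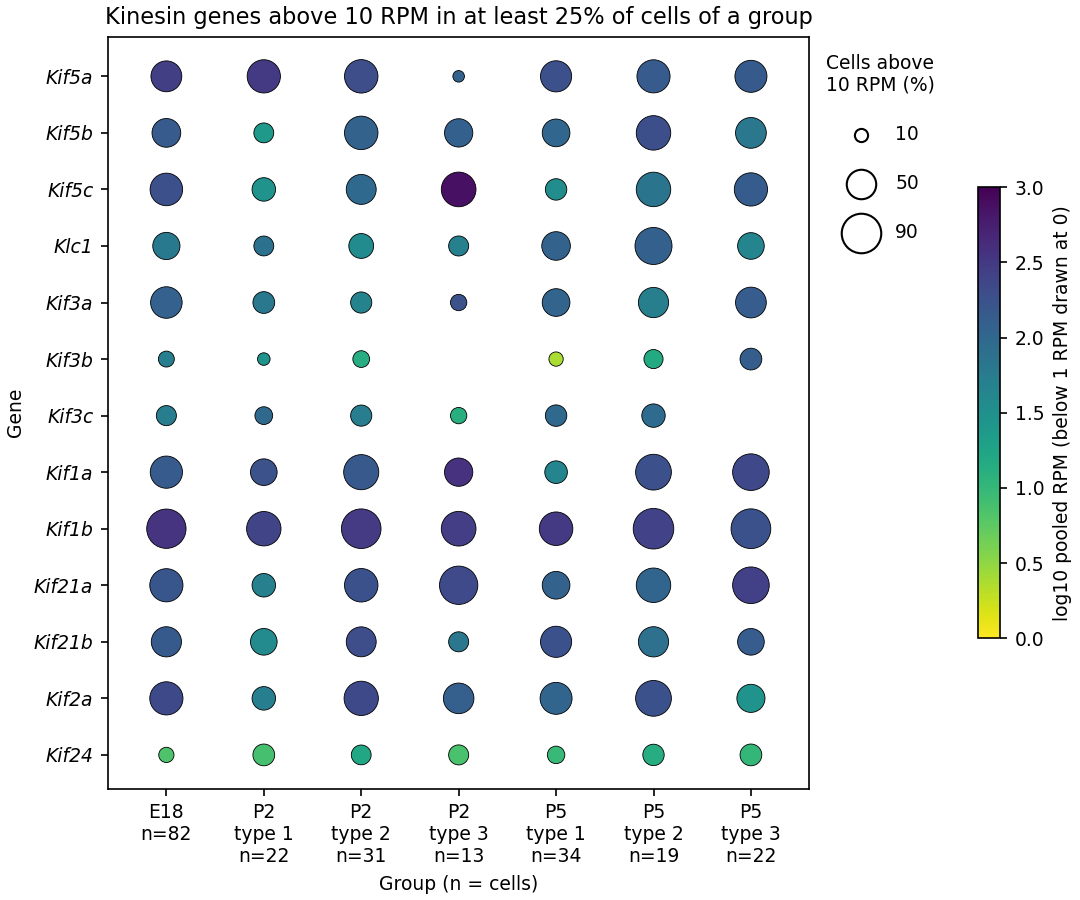
Each circle is 1 kinesin gene (rows) in 1 group of cells (columns, n = cells); its area is the percentage of cells above 10 RPM and its colour the log10 of the pooled RPM. Kif1b has large circles in every column, while Kif5a nearly disappears in P2 type 3 (7.69% of 13 cells), the group where Kif5c is darkest (755 RPM).

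Kif1b, a kinesin-3 motor of mitochondria and synaptic vesicle precursors (chr4:149176319-149307693 in GRCm38), was the most widely detected kinesin. It was found in 82.96% of all cells, from 64.7% of P5 type 1 cells to 94.7% of P5 type 2 cells. Its pooled level was 356 RPM (355 to 358) at E18. It was 247, 303 and 284 RPM in types 1, 2 and 3 at P2, and 322, 256 and 179.5 RPM in the same types at P5. The cells themselves ranged widely around these levels, at E18 from 0.461 to 1857 RPM with a median of 276. No group was free of the gene, and the ranges of all 7 groups overlapped.

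Transcript length sets part of such a level, so genes were compared with each other per kilobase of merged exons. On that scale Kif5a led at E18 with 39.98 RPM per kb, followed by Kif2a with 33.9, Kif3a with 33.7, Kif5c with 25.8 and Kif21a with 24.3. Kif1b, whose merged exons span 17.6 kb, stood at 20.2 RPM per kb, above Kif5b (17.5), Kif1a (15.3), Klc1 (15.0) and Kif21b (12.1). Kif2a and Kif3a thus had nearly the same level at E18, and the lowest of the 13 was Kif24 at 0.852 RPM per kb. The gene with the highest level per kilobase changed between groups: Kif5a in P2 type 1 (44.7), Kif2a in P2 type 2 (33.8), Kif5c in P2 type 3 (105.7), Kif3a in P5 type 1 (30.8), Klc1 in P5 type 2 (30.4) and Kif21a in P5 type 3 (41.7).

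The 3 heavy chains of kinesin-1 bind cargo through partly shared adaptors, and neurons are known to express all of them. Together they summed to 604 RPM at E18, to 365, 407 and 993 RPM in P2 types 1, 2 and 3, and to 326, 398 and 348 RPM in the P5 types. The median cell held 391 RPM at E18, 100.8, 279 and 113.98 RPM in the P2 types and 71.7, 325 and 388 RPM in the P5 types, so that P2 type 3, highest in the pooled sum, was not so in the median cell. At least 1 heavy chain was detected in 86.1% of all cells, and all 3 in the same cell in only 37 cells. The number without any was 8 of 82 at E18, 10 of 34 in P5 type 1 and 0 of 19 in P5 type 2, where a count of 0 allows a share of up to 15.8%.

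Kif5a, the neuron-enriched heavy chain (chr10:127225696-127263348), was detected in 54.9% of E18 cells at a pooled 279 RPM. In P2 types 1 and 2 it was detected in 63.6% and 64.5% of cells at 313 and 194.3 RPM. In P2 type 3 a single cell of 13 passed 10 RPM, with 1030 RPM, and the other 12 cells pooled to 0.904 RPM. The share there was 7.69% (interval 0.195 to 36.03), below the intervals of P2 type 1 (40.7 to 82.8) and P2 type 2 (45.4 to 80.8). At P5 the types were close, with 187.3, 140.5 and 144.3 RPM and 55.9%, 63.2% and 59.1% of cells. The P2 type 3 cells were also the shallowest (median of 6483870 mapped pairs, against 9794350 in P2 type 1). The part of depth in the missing Kif5a was not tested.

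Kif5c, also enriched in neurons (chr2:49619298-49774778), took nearly the reverse order. At E18 its lowest, median and highest cells held 0, 50.2 and 1323 RPM, and the pooled level was 184.3 RPM. In P2 type 1 the median cell held 0.0906 RPM and the highest 146.6 RPM, and in P2 type 2 these were 16.6 and 834 RPM. In P2 type 3 the cells ran from 0.124 to 3206 RPM with a median of 28.1. The pooled 755 RPM of P2 type 3 was the highest level of any kinesin in any group, and it was 507 RPM without its highest cell. At P5 the median and highest cells held 0.0712 and 329 RPM in type 1, 25.7 and 416 RPM in type 2 and 35.7 and 845 RPM in type 3. In both ages type 1 had its median cell near 0 and the other types did not, but every group held cells at or near 0 and the ranges overlapped.

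Kif5b, the heavy chain of most tissues (exons overlap those of the opposite-strand gene Gm17036), was detected in 22.7% of P2 type 1 cells and in 64.5% and 46.2% of types 2 and 3. At P5 it was detected in 44.1%, 68.4% and 54.5%. Its median and highest cells were 6.54 and 2189 RPM at E18, 1.47 and 322 RPM in P2 type 1, 24.5 and 639 RPM in P2 type 2, and 2.24 and 849 RPM in P2 type 3. In the P5 types they were 4.91 and 805, 32.5 and 938, and 10.7 and 311 RPM. Type 2 had the highest median at each postnatal age. Only P2 type 3 and E18 had cells with no Kif5b read pair at all.

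Combinations of heavy chains differed between the groups as counts of cells. At E18 the most frequent state was Kif5a with Kif5c (15 cells), and all 3 chains were found in 14 cells. In P2 type 1 it was Kif5a alone (6 of 22), in P2 type 2 all 3 chains (8 of 31), and in P2 type 3 Kif5c alone (5 of 13). In P5 type 1 the largest class had none of the 3 (10 of 34), and in P5 type 3 it was all 3 (6 of 22).

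**Figure D2:**
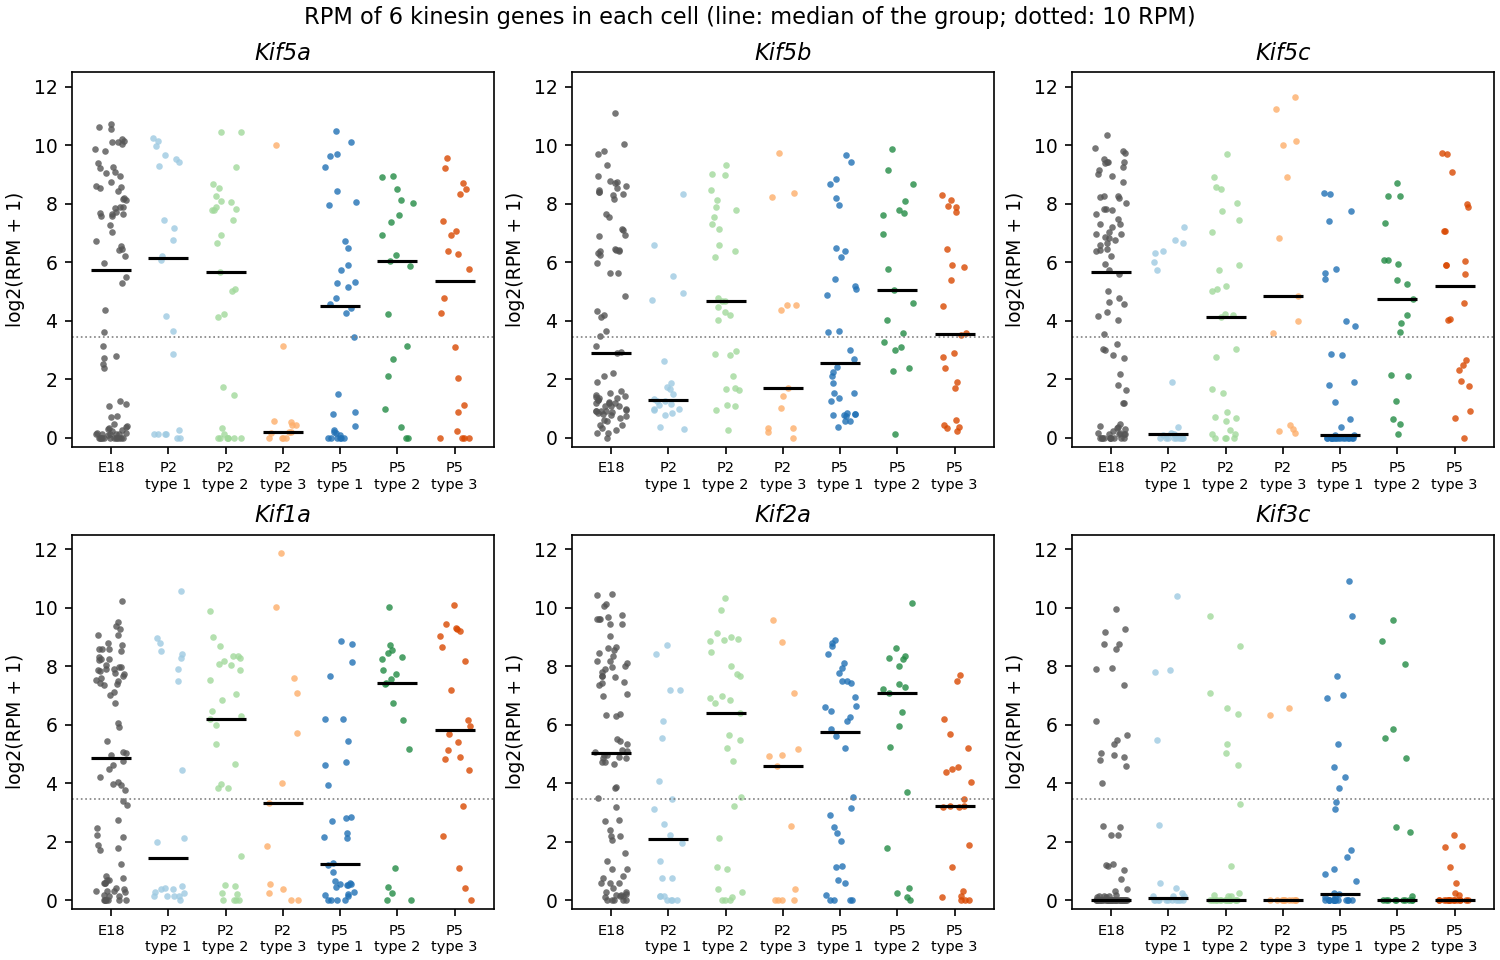
Every point is 1 cell; the vertical axis is log2(RPM + 1) of the gene in the title, the horizontal axis the group, the black line the median of the group and the dotted line 10 RPM. Most genes are split between cells near 0 and cells far above 10 RPM, and the Kif5c medians of type 1 lie near 0 at both postnatal ages (0.0906 and 0.0712 RPM).

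Among the light chains only Klc1 was widely detected. A difference between its course over the groups and that of the heavy chains was not tested. Klc1, the neuronal light chain (chr12:111758849-111807844, with an exon overlap with the opposite-strand gene Xrcc3), was at 61.1 RPM at E18, at 76.6, 37.04 and 51.02 RPM in the P2 types and at 113.6, 123.7 and 43.1 RPM in the P5 types. It was detected in 15 of 19 P5 type 2 cells (78.9%, interval 54.4 to 93.9) against 11 of 31 P2 type 2 cells (35.5%, interval 19.2 to 54.6). In P2 type 3 the pooled level came mostly from 1 cell of 681 RPM and was 4.05 RPM without it. Klc2 was detected in 12 cells and Klc4 in 15 cells over all groups, and Klc3 in none. A heavy chain and a light chain were detected in the same cell in 38 of 82 E18 cells (46.3%), in 18.2%, 38.7% and 15.4% of the P2 types, and in 35.3%, 89.5% and 36.4% of the P5 types. P5 type 2 also had the most genes detected per cell (median 2738). The part of that number in this share was not tested.

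Kinesin-2 is built from Kif3a with Kif3b or Kif3c, and the adaptor Kifap3 binds the Kif3a and Kif3b pair. Kif3a was detected in 44.8% of all cells. Of the cells with Kif3a, 19 also had Kif3b, 25 had Kif3c and 58 had Kifap3, and 15 had Kif3a, Kif3b and Kifap3 together. Kif3a stood at 120.7 RPM at E18, at 63.7, 45.5 and 175.2 RPM in the P2 types and at 110.5, 52.1 and 135.1 RPM in the P5 types. Its median and highest cells were 30.9 and 837 RPM at E18, 0.500 and 565 RPM in P2 type 1, 0.284 and 327 RPM in P2 type 2, and 0.172 and 2883 RPM in P2 type 3. The 175.2 RPM of P2 type 3 therefore rested on 1 of 2 cells above 10 RPM, and was 38.6 RPM without it. In the P5 types the median and highest cells were 1.57 and 1186, 10.1 and 356, and 41.3 and 1304 RPM.

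The partner genes were sparser than Kif3a. Kif3b was detected in 12 of 82 E18 cells, in 2, 5 and 0 cells of P2 types 1, 2 and 3, and in 4, 4 and 6 cells of the P5 types. Its pooled level ran from 0.0240 RPM in P2 type 3 to 129.05 RPM in P5 type 3, where it was 28.2 RPM without the highest cell. Kif3c was detected in 19 E18 cells, in 4, 8 and 2 cells of the P2 types and in 9, 6 and 0 cells of the P5 types. The 0 of 22 in P5 type 3 allows a share of up to 13.6%, and the highest of those cells held 3.65 RPM. In all groups the median cell held under 1 RPM of Kif3c, and the highest cells held 983 RPM at E18, 1347, 838 and 94.4 RPM in the P2 types and 1933, 764 and 3.65 RPM in the P5 types. Kif17, a motor of dendritic cargo, was detected in 3 cells in all. Kif3c shares exon positions with the opposite-strand gene 1110002L01Rik.

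Kif1a, the kinesin-3 motor of synaptic vesicle precursors, was at 142.7 RPM at E18, at 173.9, 148.8 and 377 RPM in the P2 types and at 43.7, 187.6 and 221.6 RPM in the P5 types. Its median and highest cells were 28.1 and 1206 RPM at E18. At P2 they were 1.71 and 1513 RPM in type 1, 71.8 and 952 RPM in type 2, and 9.01 and 3704 RPM in type 3. Most of the pooled 377 RPM of P2 type 3 came from that highest cell. At P5 they were 1.36 and 459 RPM in type 1, 170.6 and 1047 RPM in type 2, and 55.4 and 1089 RPM in type 3. Type 1 had the lowest median at both ages, and Kif1a was detected in 29.4% of P5 type 1 cells (interval 15.1 to 47.5) against 73.7% (48.8 to 90.9) and 77.3% (54.6 to 92.2) of P5 types 2 and 3. The other kinesin-3 genes were sparse: Kif13b was detected in 21 cells, Kif13a in 13, Kif16b in 6 and Kif1c in 4. Kif13a, a motor of endosomes, was detected in 8 E18 cells, 3 P2 type 2 cells and 2 P5 type 2 cells, and in none of the 91 cells of types 1 and 3, which allows a share of up to 3.30%; its 80.9 RPM in P5 type 2 came from 1 cell of 1437 RPM and was 2.53 RPM without it.

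Among the members that act on microtubule ends, Kif21a, Kif21b and Kif2a were also common. Kif21a, a kinesin-4 that slows microtubule growth, was detected in 60.5% of all cells and stood at 157.3 RPM at E18, at 50.7, 180.02 and 210.7 RPM in the P2 types and at 118.01, 106.9 and 269.8 RPM in the P5 types. Kif21b, its paralogue, was detected in 48.9% of all cells, at 147.05 RPM at E18, 37.8, 196.2 and 64.2 RPM at P2 and 182.3, 78.99 and 133.6 RPM at P5. Kif2a, a depolymerase known to trim axon branches, was detected in 58.7% of all cells. Its median and highest cells were 31.5 and 1403 RPM at E18, 3.27 and 423 RPM in P2 type 1, 83.7 and 1275 RPM in P2 type 2, and 22.98 and 763 RPM in P2 type 3. In the P5 types they were 52.2 and 476, 133.997 and 1133, and 8.26 and 206.1 RPM. The order of the types was thus led by type 2 at each age, and the lowest type was type 1 at P2 and type 3 at P5. Kif24, a kinesin of the centriole, was low everywhere (6.83 to 16.5 RPM pooled) and detected in 44 cells. Kif2a overlaps the opposite-strand gene Dimt1 in exons.

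Kinesin genes per cell were counted next. On average 7.39 ± 2.47 kinesin genes (SD over 82 cells) were detected in an E18 cell. In the P2 types the means were 4.55 ± 1.68, 7.16 ± 2.03 and 5.31 ± 1.70, and in the P5 types 5.97 ± 2.46, 8.89 ± 1.97 and 7.09 ± 2.45. Cells were thinned to the mapped pairs of the shallowest cell as a check on depth, and the means then differed from these by at most 0.154 genes. At both postnatal ages type 2 also led in the number of all genes detected per cell. Types 1 and 3 took the reverse order in that number. Its medians were 2496 at E18, 1834, 2482 and 1437 in the P2 types and 2258, 2738 and 2102 in the P5 types. Per 1000 genes detected, the median number of kinesin genes was 2.84 at E18, 2.34, 3.12 and 3.76 at P2 and 2.49, 3.19 and 3.51 at P5. Per gene detected, type 3 therefore stood highest and type 1 lowest at both postnatal ages, which is not the order of the plain counts.

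**Figure D3:**
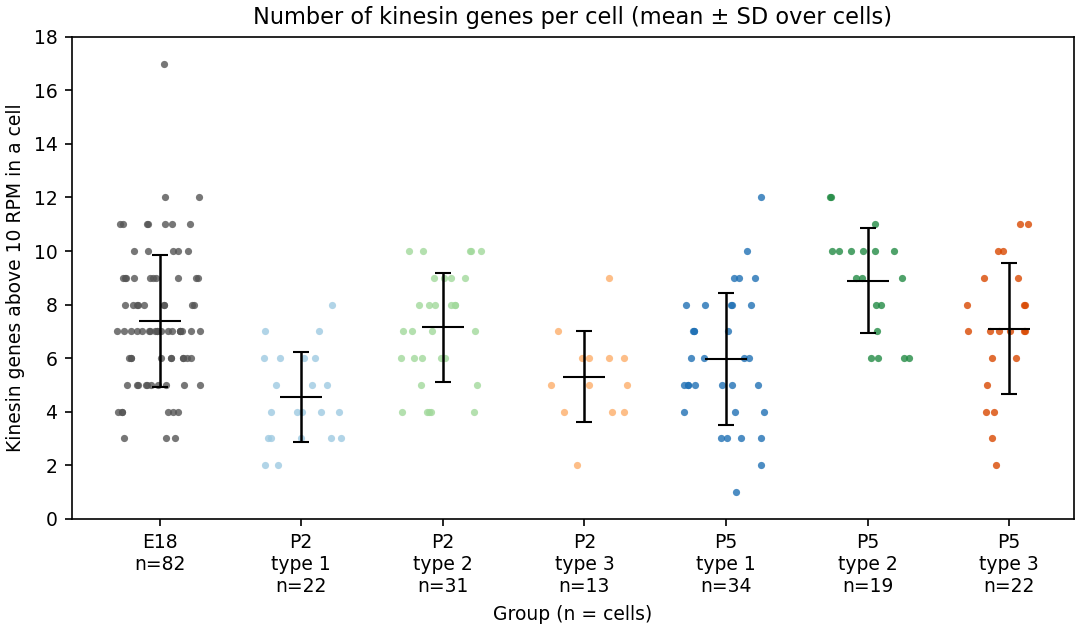
Each point is 1 cell, the vertical axis counts kinesin genes above 10 RPM, and bars give the mean ± SD over the cells of a group. P5 type 2 has the highest mean (8.89) and P2 type 1 the lowest (4.55); the E18 cell with 17 kinesin genes is the one with 6 mitotic kinesins.

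The change from late embryo to P5 was read as the log2 of the ratio of pooled RPM, with 1 RPM added to each side, over genes detected in more than 5% of the cells compared. Of the 45 kinesin genes, 21 passed that filter. At P5, 2 of them were at least 2-fold higher than at E18 (9.52%) and 5 at least 2-fold lower (23.8%). Among all 9808 genes tested 11.9% were higher and 19.6% lower, and the median log2 change was -0.19 for kinesin genes and -0.17 for all. The share of kinesin genes past 2-fold was thus near that of all genes, and no age pattern of the family as a whole is read from it.

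The genes past 2-fold were mostly sparse ones. Kif26b, a kinesin-11 needed in kidney development, was lower at P5 by a log2 of -2.30 (7.08 to 0.638 RPM; highest cells 211.4 and 15.3 RPM; 6 of 82 and 2 of 75 cells detected). Kif20b, which acts in cytokinesis and in neuronal polarity, was lower by -1.36 (19.8 to 7.08 RPM, and 11.2 to 1.26 RPM without the highest cells of 682 and 458 RPM). Kif13b was lower by -1.17 (16.4 to 6.71 RPM, highest cells 377 and 140 RPM). For these 3 genes the lowest and the median cell were at 0 at both ages. Among widely detected members, Kif5c was lower by -1.39 and Kif2a by -1.005. The median Kif5c cell was 50.2 RPM at E18 and 6.06 RPM at P5, and the detected share was 60.98% against 48%. For Kif2a the medians were 31.5 and 22.3 RPM and the shares 63.4% and 58.7%. The lowest cell of both genes was 0 at both ages, and the ages overlapped over nearly the whole range.

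Klc4 and Kifc2 were the members past 2-fold in the other direction. Klc4, a light chain, was at 5.50 RPM at E18 and 31.9 RPM at P5 (log2 2.34), with 5 and 9 cells detected. A single P5 cell of 1502 RPM carried most of the P5 value, which was 3.38 RPM without that cell, about the E18 level. Kifc2, a minus-end motor of the kinesin-14 class found in neurons, was at 3.64 and 22.2 RPM (log2 2.32), with 2 E18 cells and 10 P5 cells detected and highest cells of 306 and 728 RPM. Without the highest cell the levels were 0.197 and 8.07 RPM. Its exons overlap those of the opposite-strand gene Cyhr1. Next in order, and short of 2-fold, were Klc1 (log2 0.69; medians of 3.83 and 12.5 RPM, highest cells 981 and 803 RPM), Kif24 (0.60; medians of 2.47 and 3.86 RPM) and Kif3c (0.38; medians of 0 at both ages).

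Within the library sets that hold cells of both ages, the directions were less uniform. Sets B, C and D hold 48, 9 and 25 E18 cells and 15, 17 and 43 P5 cells. Of the 21 genes tested, 5 had the same sign in all 3 sets: Kif5c, Kif2a, Kif20b, Kif26b and Kifc2. The same share over all genes was not computed, so this count is not read as particular to kinesins. For Kif20b this has no content in set D, where no cell of either age was above 10 RPM. Kifc2 passed the filter on low values through its P5 cells, and Kif20b and Kif26b through their E18 cells, so the filter favoured their direction and the sets lend it no support. Kifc2 had a log2 of 3.34 in set B and 2.34 in set D, from 1 and 6 P5 cells and 1 E18 cell in each set. In set C it was at 16.6 RPM at P5 (3 cells) and had no read pair at E18. For Kif5c the values were -4.31, -2.44 and -0.36, and for Kif2a -1.74, -1.14 and -0.31, so that in set D, which has the most P5 cells, both were close to level. The sets also differ in types: the P5 cells of types 1, 2 and 3 number 11, 2 and 2 in set B, 11, 3 and 3 in set C and 12, 14 and 17 in set D, and the part of this in the set values was not tested. Klc4 was higher at P5 in set D alone (log2 5.04, against -0.16 in set B and -1.68 in set C).

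Each P5 type was also set against E18. Type 1 had 1 of 20 tested members higher (Klc4) and 7 lower, with backgrounds of 13.4% and 27.8% of all genes. Its lower members included Kif5c (log2 -2.38), Kif1a (-1.69) and Kif3b (-3.98). Type 2 had 3 of 19 higher and 6 lower, against backgrounds of 15.7% and 27.5%. Klc1, at 1.01, was the only widely detected one among the higher genes, the others being Klc2 and Kif13a. Kif13a rested on 1 cell, as given above, and without that cell it was below the 23.8 RPM of E18. Type 3 had 2 of 20 higher and 7 lower, against backgrounds of 11.6% and 49.6%. Here Kif2a (-2.87), Kif3c (-5.21) and Kif5b (-1.10) were lower and Kifc2 (2.22) and Kif3b (1.26) higher. A single cell carried much of these higher levels: without its highest cell, Kif3b in P5 type 3 was at 28.2 RPM, below the 53.3 RPM of E18, and Klc4 in P5 type 1 was at 1.70 RPM, below the 5.50 RPM of E18. These comparisons share the E18 cells and are not independent of each other.

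From P2 to P5 within a type, 7 of 18 tested members were higher and 2 lower in type 1 (backgrounds 32.7% and 19.9%), 4 of 19 higher and 2 lower in type 2 (25.6% and 24.1%), and 4 of 17 higher and 4 lower in type 3 (44.3% and 25%). In type 1 the widely detected genes that were higher at P5 were Kif5b (log2 2.09), Kif21b (2.24) and Kif21a (1.20), and Kif1a was lower (-1.97). In type 2 Klc1 was higher (1.71) and Kif21b lower (-1.30). In type 3 Kif5c was lower in the pooled level (-2.43) but not in the median cell, as given above, and Kif2a was lower (-2.11). Higher in type 3 were Kif3b (6.99, with no P2 cell above 10 RPM) and Kif21b (1.05). In none of these can age be told apart from library set.

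The types were next compared with each other at each age. The authors assigned the types from the same counts, so these differences are descriptive. At both ages 13 members passed the filter, and for each type the genes at least 2-fold away from the other types in the same direction at P2 and at P5 were listed. Type 1 had Kif3c higher and Kif5c lower. The backgrounds were 5.98% higher and 9.39% lower of all genes tested at both ages. Type 2 had Kif2a and Kif5b higher and Kif3a lower, with backgrounds of 8.06% and 4.86%. Type 3 had Kif1a and Kif5c higher and Kif3c lower, with backgrounds of 2.77% and 27.9%. With 13 genes each gene is 7.69%, and counts this small are not read as particular to kinesins.

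**Figure D4:**
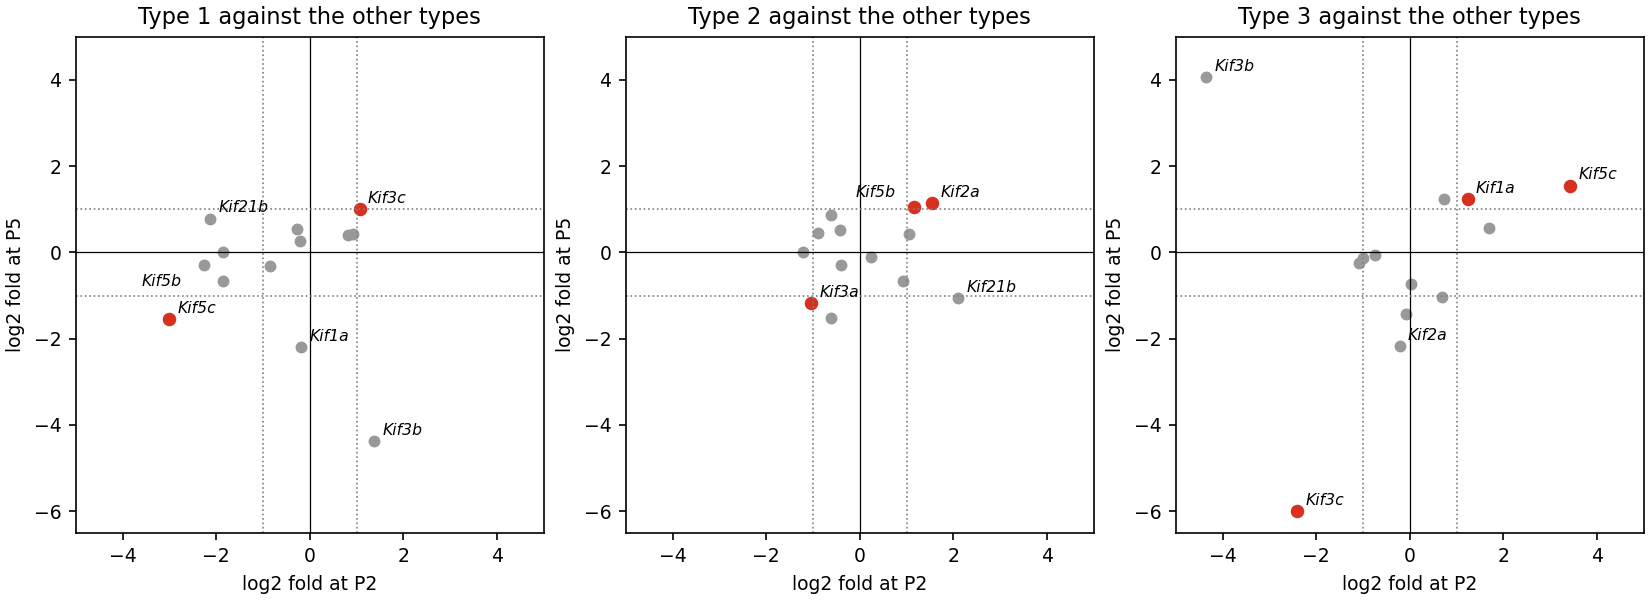
Each point is 1 of the 13 kinesin genes tested at both ages; axes give the log2 fold of a type over the pooled cells of the 2 remaining types, at P2 (horizontal) and P5 (vertical), dotted lines mark 2-fold, and red points are past 2-fold in the same direction at both ages. Kif5c lies far right in type 3 (3.43 at P2, 1.55 at P5) and left in type 1 (-3.01 and -1.55), and Kif3b lies in opposite quadrants of types 1 and 3.

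Kif5c was set apart in both type 1 and type 3. Its log2 fold in type 3 was 3.43 at P2 and 1.55 at P5, from 755 against 69.01 RPM and 139.01 against 46.8 RPM. In type 1 it was -3.01 and -1.55. At P5 the mean over cells of log2(RPM + 1) differed in the same direction (2.00 in type 3 and -2.68 in type 1). Within set D at P5 the type 3 value was 1.12 and the type 1 value -0.71, and in set B, with 2 type 3 cells, they were -3.12 and 1.10.

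The remaining genes past 2-fold at both ages were read under the same settings. Kif3c in type 3 had log2 folds of -2.41 and -5.99, with 2 of 13 and 0 of 22 cells detected, and was at -5.63 in set D and -5.01 in set B; at P2 it was -0.79 as a mean over cells. Kif1a in type 3 had log2 folds of 1.24 and 1.23, but at P2 the value was 0.15 without the highest cell of each group and -0.40 as a mean over cells. At P5 it was 0.37 in set D and 3.50 in set B. For Kif3c in type 1 (1.06 and 1.00) 4 of 22 and 9 of 34 cells carried the level, and at P2 it was -0.12 without the highest cells. At P5 it was -4.16 in set B and 2.96 in set D, and 0.80 scaled to read pairs on genes. Kif2a in type 2 had 1.54 and 1.15, with 21 of 31 and 14 of 19 cells detected, and the mean over cells gave 2.08 and 1.46. Without the highest cells it was 1.64 and 0.67. Kif5b in type 2 (1.16 and 1.04) gave 2.14 and 1.59 as a mean over cells, and at P5 it was 0.59 without the highest cells and 0.72 scaled to read pairs on genes. Kif3a in type 2 (-1.03 and -1.17) gave -0.16 and -0.38 as a mean over cells, and -0.15 in set D at P5. At P5, 5 of the 19 type 2 cells had at least 2 markers of another cell type, and without such cells Kif5b in P5 type 2 was at 0.89, Kif2a at 1.31 and Kif3a at -2.08.

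The type 3 comparison has its own scale. Over all genes tested, type 3 had a median log2 fold of -1.26 at P2 and of -0.78 at P5, and the kinesin medians were -0.07 (13 genes) and -0.19 (18 genes). At P2, 3 of 13 kinesin genes were higher and 4 lower (30.8%), where 16.0% of all genes were higher and 53.4% lower. At P5, 4 of 18 were higher and 6 lower (33.3%), against 14.7% and 45.7%. Scaling by edgeR's TMM or by DESeq2's size factors raised the median of all genes by 0.59 and 0.82 at P2 and by 0.44 with either at P5. Kif5c in type 3 was then at 4.15 and 4.34 at P2 and 2.05 and 2.02 at P5, and Kif3c stayed lower than in the other types (-1.76 and -1.53, then -6.27 and -5.67).

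Some partners of kinesins were followed from lists of genes outside the family. Among 21 cargo adaptors, 17 were tested between P5 and E18; 3 were higher and 1 lower, where 11.9% of all genes were higher and 19.6% lower. Trak1, which links kinesin-1 to mitochondria, was at 83.7 RPM at P5 and 18.9 RPM at E18 (log2 2.09), Grip1 at 220.6 and 96.97 RPM (1.18) and Ppfia4 at 13.3 and 0.750 RPM (3.03). Fez1, a kinesin-1 adaptor for axonal cargo, was the lower one, at 134.9 against 484 RPM (-1.84), and was detected in 50.7% against 86.6% of cells. Of 19 tested genes of dynein, the motor of opposite direction, of dynactin and of their adaptors and regulators, 1 was higher (Dync1i1, 1.15) and 3 lower (Dync1li1, Dctn3 and Bicd2), and of 16 tubulins and microtubule proteins none was higher and 1 lower (Tubb2b, -1.08). The 15.8% of dynein and dynactin genes that were lower stood near the share of all genes.

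Between the types, 13 of 19 dynein and dynactin genes were at least 2-fold lower in type 3 at P2 (68.4%, against 53.4% of all genes), with a median log2 of -1.96. At P5 they were 9 of 19 (47.4%, against 45.7%), near the share of all genes, with a median of -0.98. Of the adaptors, 5 were higher and 6 lower of 16 in type 3 at P2 (median log2 0.66), and 5 higher and 5 lower of 17 at P5 (median -0.14). These are 31.2% higher and 37.5% lower at P2, where all genes had 16.0% and 53.4%, and 29.4% either way at P5, against 14.7% and 45.7%. The higher ones included Mapk8ip2 (2.18) and Rhot1 (1.53) at P2, both lower at P5 (-2.04 and -2.69), and Trak1 (2.45) at P5. Kifap3 was lower in type 3 at both ages (-1.50 and -1.32), as were Fez1 (-2.43 and -1.16) and Trak2 (-2.87 and -2.19). Dynlt3, a dynein light chain, was higher in type 2 at both ages (5.31 and 4.69). It was detected in only 8% of all P5 cells, at a pooled 20.6 RPM. At P5 it may therefore have passed the 5% filter through type 2 alone. Microtubule proteins were lower in type 3 for 7 of 15 genes at P2 (46.7%, below the 53.4% of all genes) and 9 of 16 at P5 (56.2%, against 45.7%), among them Tuba1a (-1.56 and -3.20) and Map1b (-1.42 and -2.75). In type 2 at P5, 6 of 16 were higher, where 23.5% of all genes were. At P2 it was the other way, with 1 of 15 higher (6.67%, against 28.1% of all genes).

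Mitotic kinesins, the last class, move chromosomes and build the spindle and midbody, and the 12 listed were looked for cell by cell. Of these, 11 were detected in at least 1 cell and Kif18b in none. The numbers of cells were 10 for Kif20b, 6 for Kif11 (the spindle motor Eg5), 5 for Kif18a, 4 each for Kif15 and Kif22, 3 each for Kif20a and Kif23, 2 each for Kif14, Kif2c and Kifc1, and 1 for Kif4. At least 1 mitotic kinesin was detected in 17 of 82 E18 cells (20.7%, interval 12.6 to 31.1), in 10 of 66 P2 cells (15.2%, 7.51 to 26.1) and in 7 of 75 P5 cells (9.33%, 3.84 to 18.3), and these intervals overlap.

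At least 3 mitotic kinesins above 10 RPM in the same cell were found in 2 of 82 E18 cells (2.44%, interval 0.297 to 8.53). The counts of 0 of 66 at P2 and 0 of 75 at P5 allow shares of up to 4.55% and 4.00%, which with 1 pool per age bears on these cells and not on the ages. Scaled to read pairs on genes instead of mapped pairs, 1.52% of P2 cells (1 of 66) also had at least 3. The first of the 2 cells, of library set C, had 6: Kif14 at 143.5 RPM, Kif15 at 114.996, Kif20b at 112.3, Kif23 at 22.2, Kif11 at 14.2 and Kif18a at 10.1 RPM. In the same cell 13 of 20 other cell cycle genes were detected, Top2a at 880 RPM, Mki67 at 817 RPM and Prc1 at 314 RPM leading, and 17 kinesin genes in all. No other cell had more than 4 of the 20. Of the 7 interneuron markers that cell had Gad2 at 55.2 RPM and Dlx1 at 21.5 RPM. It had no read pair of Htr3a, Gad1 or Dlx2, and little of Dlx5 (0.0953 RPM) and Dlx6 (1.05 RPM). It also held 3 excitatory neuron markers and 2 of radial glia and astrocytes (Slc1a3 at 115.8 RPM and Fabp7 at 61.6 RPM). It had 4886 genes detected against a median of 2496 at E18.

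The second cell, of set D, had Kif20a at 103.95 RPM, Kifc1 at 31.3 RPM and Kif11 at 10.7 RPM but only 1 of the 20 other cell cycle genes. It carried Htr3a at 3122 RPM and 3 excitatory neuron markers. Both cells are thus among those with at least 2 markers of another cell type, and without such cells the E18 share was 0. A further E18 cell had 2 mitotic kinesins, Kif11 at 227 RPM and Kif14 at 16.9 RPM, and Birc5 as its single other cell cycle gene. Capture sites were looked at under a microscope in the study; whether 2 cells were caught in 1 of them was not tested here. Kif18a was set apart by a low level in nearly every cell (2.62 RPM in the median P5 type 1 cell) and by 2 P5 type 1 cells of high level, the highest at 536 RPM; its exons overlap those of the opposite-strand gene Mettl15, and strand was not stated for the counting.

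**Figure D5:**
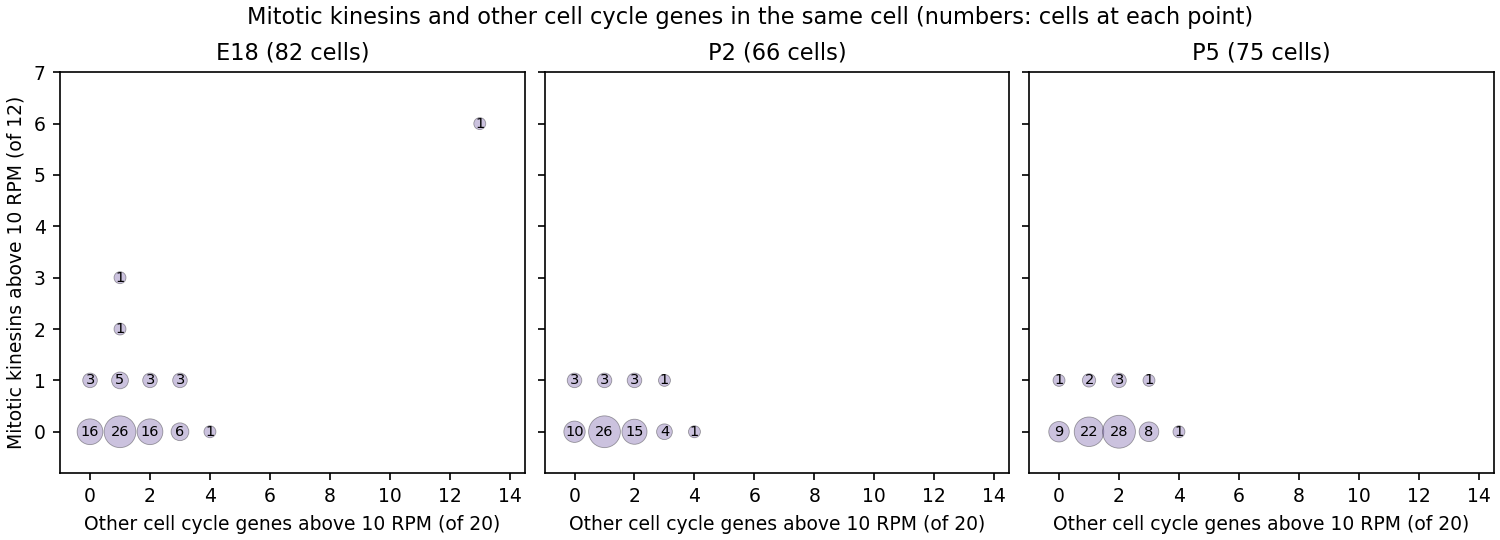
Circles mark how many cells (printed number, area) at each age had a given number of mitotic kinesins (vertical, of 12) and of other cell cycle genes (horizontal, of 20) above 10 RPM. A single E18 cell stands alone at 6 mitotic kinesins and 13 other genes; every P2 and P5 cell has at most 1 mitotic kinesin.

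Promoter sequence was read for the mitotic kinesins because their transcription is known to follow the cell cycle through the CHR hexamer, TTTGAA, and the CCAAT box. The 250 bases before each annotated start (RefSeq, GRCm38.p6) were searched for both motifs, in these letters, on both strands. The CHR hexamer was found in 5 of 11 mitotic windows, in 3 of 28 windows of 24 other kinesin genes and in 16.0% of 32851 windows of all genes. The CCAAT box was found in 7 of 11, in 11 of 28 and in 33.8%. Both were found in 3 of the 11 mitotic windows (Kif11, Kif14 and Kif22), in 2 of the 28 and in 5.55% of all. The RefSeq start lies inside the gene as GENCODE gives it for 6 of the 11 mitotic windows (Kif14, Kif15, Kif22, Kif2c, Kif4 and Kifc1) and for 14 of the 28 others, so that these windows are at least in part within the gene. Those of Kif14, Kif2c and Kif4, and of the others those of Kif17 and Kif27 and 1 of the 2 of Kif1a, lie wholly within it. Without these 6 windows the hexamer was found in 3 of 8 mitotic and 1 of 25 other windows, the CCAAT box in 5 and 10, and both in 2 and 1. These are matches of letters and not binding sites. The 4 mitotic windows shown are free of annotated exons and follow as their 120 bases nearest the start, 5′ to 3′ on the gene's strand in lower case, with the motif letters of either strand in capitals, to show the spacing of the 2 motifs in Kif11, detected in 6 cells, beside Kif18b, detected in none.
Kif11 (chr19:37376262-37376381, plus strand): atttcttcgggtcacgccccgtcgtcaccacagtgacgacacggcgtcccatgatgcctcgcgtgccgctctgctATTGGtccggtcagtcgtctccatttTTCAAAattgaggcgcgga
Kif18b (chr11:102925125-102925244, minus strand): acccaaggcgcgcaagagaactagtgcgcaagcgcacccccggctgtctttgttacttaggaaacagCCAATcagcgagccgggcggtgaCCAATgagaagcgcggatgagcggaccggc
Kif23 (chr9:61946800-61946919, minus strand): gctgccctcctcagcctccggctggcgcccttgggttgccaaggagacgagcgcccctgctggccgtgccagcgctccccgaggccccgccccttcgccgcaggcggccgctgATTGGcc
Kif20b (chr19:34922238-34922357, plus strand): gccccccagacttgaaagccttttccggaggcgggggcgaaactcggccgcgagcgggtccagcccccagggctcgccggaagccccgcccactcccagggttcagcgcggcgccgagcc

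In Kif11 the hexamer (as TTCAAA on the printed strand) starts 19 bases and the CCAAT box (as ATTGG) 45 bases before the RefSeq start. Kif15 and Kif22 also had a hexamer at 19 and 17 bases, in both within the gene as GENCODE gives it. Kif18b had 2 CCAAT boxes at 53 and 30 bases and no hexamer, Kif23 had 1 CCAAT box at 7 bases, and Kif20b, the mitotic member detected in the most cells, had neither in its window.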

How the data were processed

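Single cells were captured on Fluidigm C1 chips, reverse transcribed with the SMARTer kit and made into Nextera XT libraries, with no molecular identifiers. TopHat2 was used by the authors for alignment to GRCm38 and HTSeq 0.6.1 for counting per gene (the strand setting is not given in the sources used here). They deposited raw counts for each age, beside each cell's factor from counts to RPM. Counts were used as deposited, over 43629 genes; mapped pairs per cell were taken from the inverse of that factor. Of the identifiers, 42548 were named through GENCODE vM21 (GRCm38), which also gave coordinates and exon lengths. Read pairs on genes ran from 1596087 to 11692823 per cell.

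Pooled RPM, shares above 10 RPM and log2 folds (1 RPM added, over genes detected at 10 RPM in over 5% of compared cells, called past 2-fold) were computed with Python 3.11.15, numpy 2.4.6 and pandas 2.3.3. With 1 pool of animals per age no test was run and no p-value is given. Alternatives used edgeR 4.0.16 and DESeq2 1.42.0 for scaling factors only.

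Members, lists and comparisons were chosen with earlier results of these data known. Genes detected in at least 25% of the cells of a group are given in every group. Values per cell are given for members past 2-fold at both ages in a type, and for the 5 largest changes between E18 and P5 in each direction. Mitotic members are given by their number of cells, and others by counts.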

Additional observations from a re-analysis of the deposited data

Results flagged for a closer look

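Kif3b and Kif21b lay past 2-fold in opposite directions at P2 and at P5 in the same comparison of types. The share of all genes that did so was not computed. With 1 pool per age the difference between the ages was not tested. For Kif3b, type 1 stood at a log2 fold of 1.38 in the P2 cells and of -4.38 in the P5 cells, from 2 of 22 and 4 of 34 cells above 10 RPM, and at P2 it was -0.15 without the highest cell of each group. Kif3b in type 3 was at -4.35 at P2 (0 of 13 cells) and 4.06 at P5 (6 of 22 cells), and at -2.28 at P5 within library set B, which holds 2 of those cells. Kif21b in type 2 was at 2.10 at P2 and -1.06 at P5, and at 0.021 at P5 as a mean over cells of log2(RPM + 1).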

How the results depend on the processing

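For 54 folds of kinesin genes past 2-fold between P5 and E18 or between types, the settings counted here gave 392 values. Of these, 366 had the same direction and 294 were still past 2-fold. Adding 0.1 or 10 RPM and dropping the filter cannot turn a sign and are not counted. The scalings (to read pairs on genes, TMM and DESeq2) moved the median of all genes by a log2 of at most 0.82, short of 2-fold. They could hardly turn a sign, so the 54 of 54 kept in each lends no support. The direction was kept for 45 of 54 as a mean over cells and 48 of 54 without the highest cells. In set D alone it was 33 of 34, and in set B alone 24 of 34. As a mean over cells 23 of 54 were past 2-fold in the same direction. The 26 values that turned are given here; the cause was not tested. No pairing of cells was possible because each age is 1 pool and cell numbers do not pair cells. E18 and P5 were compared within library sets B, C and D, which hold cells of both ages. The setting without cells that have markers of another cell type was chosen after seeing the data.

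As a mean over cells of log2(RPM + 1), the folds that turned were Kif3b in type 1 at P2 (-0.0070), Kif5c in type 2 at P2 (0.37), Kif1a and Kif3a in type 3 at P2 (-0.40 and -0.43), Kifc2 in type 1 at P5 (-0.58) and Klc4, Kifc2, Kif3b and Kif21b in type 2 at P5 (0.51, 0.055, 0.29 and 0.021). Without the highest cell of each group they were Kif3c and Kif3b in type 1 at P2 (-0.12 and -0.15), Kif3a in type 3 at P2 (-0.16), Klc4 and Kifc2 in type 1 at P5 (-0.30 and -1.23) and Klc4 in type 2 at P5 (0.87). In library set D alone it was Kifc2 in type 1 at P5 (-0.69). In set B alone they were Klc4 between P5 and E18 (-0.16), Klc4, Kif3c and Kif5c in type 1 (-2.01, -4.16 and 1.10), Klc4 and Kif3b in type 2 (1.48 and 3.21) and Klc4, Kif21a, Kif5c and Kif3b in type 3 at P5 (1.53, -1.17, -3.12 and -2.28); set B holds 2 cells each of types 2 and 3 at P5.

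Kinesin genes higher at P5 than at E18 numbered 0 as a mean over cells, 4 without a filter on genes and 4 in set B, against 2; those lower numbered 1 with 10 RPM added, 1 as a mean over cells and 13 without the filter, against 5. Genes past 2-fold at both ages in type 1, 2 in the report, numbered 1 with 10 RPM added, 1 scaled to read pairs on genes, 5 without the filter and 1 in set B. That 1 in set B was Kif5b, none of the 2, while Kif5c alone was shared by the 3 genes of the mean over cells and the 2 without the highest cells, and Kif3c alone by the 2 in set D. In type 2, 3 in the report, they numbered 1 with 10 RPM added, 1 scaled to read pairs on genes, 0 without the highest cells and 6 without the filter. In type 3, 3 in the report, they numbered 5 with TMM factors, 5 with DESeq2 size factors and 5 in set B, of which 3, 3 and 2 were genes of the report; the 2 genes of the mean over cells shared 1.

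The share of cells with at least 3 mitotic kinesins was 14.6%, 13.6% and 8.00% at E18, P2 and P5 above 1 RPM and 79.3%, 83.3% and 88% from at least 1 read pair, and 0 at E18 without cells that have markers of another cell type. Scaling moved the median fold of all genes between P5 and E18 by 0.13 to 0.19, and between types by -0.32 to 0.82. Thinning all cells to the same depth left the share with at least 3 mitotic kinesins at 2.44%, 0 and 0; scaled to read pairs on genes it was 2.44%, 1.52% and 0.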
